A study of Saccharomyces cerevisiae with 6 samples.

Results

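The genes described here make, desaturate and activate long-chain fatty acids in the budding yeast Saccharomyces cerevisiae. They are 10 of the 5917 rows of the deposited expression table and were chosen by systematic name. OLE1 (YGL055W) encodes the fatty acid desaturase. MGA2 (YIR033W) and SPT23 (YKL020C) encode its transcriptional activators, and UBX2 (YML013W) an adaptor needed for their release. ACC1 (YNR016C), FAS1 (YKL182W) and FAS2 (YPL231W) encode acetyl-CoA carboxylase and both subunits of fatty acid synthase. FAA1 (YOR317W), FAA3 (YIL009W) and FAA4 (YMR246W) encode acyl-CoA synthetases. All 10 genes were in the table and all 10 passed the filter on low values.

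Poly(A) RNA was sequenced from 6 log-phase cultures grown at 30 °C in synthetic defined medium. In each of 3 cultures the cells received 20 uM edelfosine, a synthetic ether-linked analogue of lysophosphatidylcholine, for 60 minutes, and 3 cultures received 0.095% ethanol as the vehicle for the same time. Both treatments used strain W303 for replicates 1 and 2 and BY4741 for replicate 3, all titled as wild type and labelled biological replicates. Strain and replicate 3 therefore cannot be told apart, and BY4741 had 1 library per treatment. The auxotrophic markers matched the strain labels, with URA3 at no more than 0.0629 TPM in the BY4741 libraries and at least 90.01 TPM in the W303 libraries.

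Yeast builds saturated acyl-CoA in the cytosol. Acc1 makes malonyl-CoA, and Fas1 and Fas2, the beta and alpha subunits of one multienzyme complex, extend it to palmitoyl- and stearoyl-CoA. Ole1, in the endoplasmic reticulum membrane, puts a double bond at the ninth carbon and is the organism's only source of monounsaturated acyl chains, on which membrane fluidity depends. Mga2 and Spt23 are made as dormant precursors anchored in that membrane. The ubiquitin ligase Rsp5, the proteasome and the segregase Cdc48 free their N-terminal parts to enter the nucleus, where they switch on OLE1. Faa1 and Faa4 activate most of the fatty acids taken up from the medium, and Faa3 prefers long and very long chains.

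Levels are given in TPM, a measure of transcript abundance that is corrected for gene length and has a fixed total per library, after scaling each library by a trimmed mean of log ratios. The scaling factors were between 1.20 and 1.25 in the edelfosine libraries and between 0.715 and 0.891 in the vehicle libraries. Without scaling, the median gene was 0.55 higher with edelfosine on the log2 scale, so each change below is relative to the median gene and is no measure of RNA per cell. Fewer cells of a kind and less RNA per cell cannot be told apart in whole cultures. Log2 changes, and the folds and relative levels computed from them, are on the scale log2(scaled TPM + 1), which understates those of low genes. A gene was called at an adjusted p under 0.05 in limma over all genes. Read depth is unknown, because TPM keeps none.

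Edelfosine split these genes. The desaturase OLE1 and its activator MGA2 were far higher, UBX2 and FAA4 were moderately higher, and FAA3 was lower. SPT23, ACC1, FAS1, FAS2 and FAA1 did not pass the test. In all, 4 of the 10 genes were higher and 1 was lower. Among all 5707 genes tested 54.6% changed, with 27.3% higher and 27.3% lower, so the share of these genes called is near that background. Scaled TPM of the treatments did not overlap for 5 of the 10, against 61.6% of all tested genes. The median log2 change was 0.24 over the 10 genes and 0.01 over all genes tested.

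**Figure D1:**
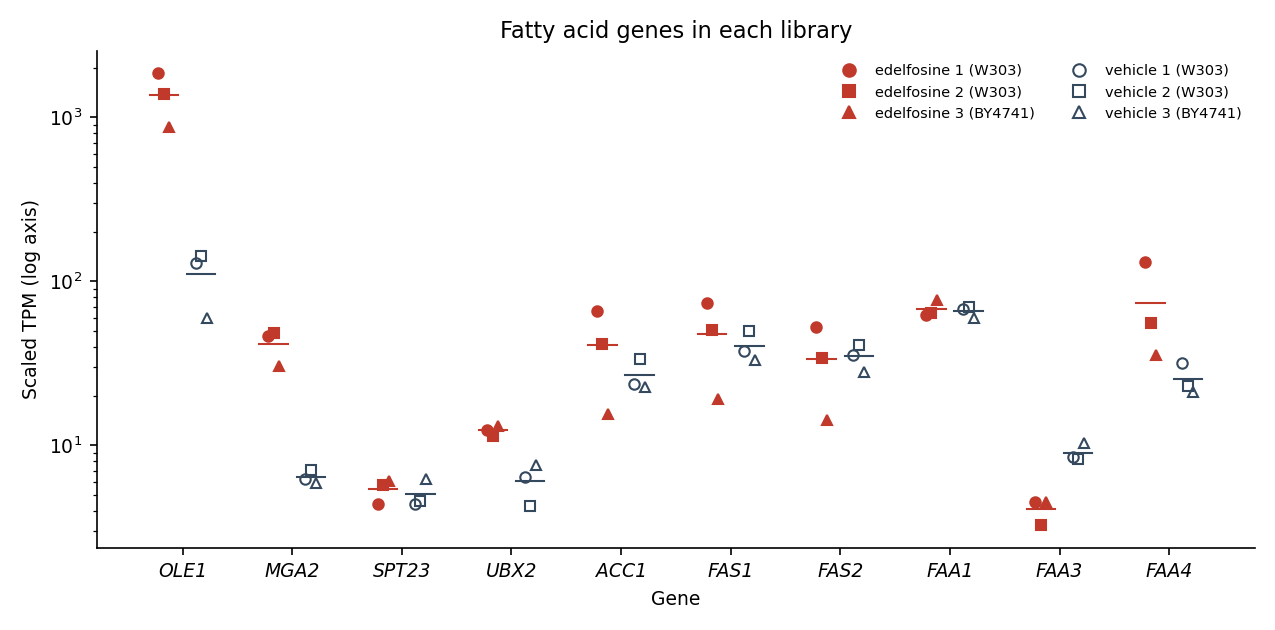
Scaled TPM (log axis) of the 10 genes in each library, with edelfosine libraries as filled red symbols and vehicle libraries as open dark symbols; symbol shape gives the replicate and its strain, and horizontal bars are group means (n = 3 each). OLE1, MGA2, UBX2 and FAA4 lie higher in every edelfosine library than in any vehicle library, FAA3 lies lower, and ACC1, FAS1, FAS2 and FAA4 spread widely among the edelfosine libraries.

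OLE1 had 1857, 1391 and 873 scaled TPM in edelfosine replicates 1, 2 and 3, against 129, 143 and 59.7 scaled TPM in vehicle replicates 1, 2 and 3. The lowest edelfosine library was thus several times above the highest vehicle library, and BY4741 was the lowest under either treatment. The means were 1374 ± 492 scaled TPM with edelfosine and 111 ± 44.5 scaled TPM with the vehicle (SD, n = 3 each). The log2 change was 3.65 ± 0.19 (SE; adjusted p = 0.000167, limma), a 12.6-fold increase with a 95% confidence interval from 9.12 to 17.4. It ranked as the 58th largest rise among the 5707 genes tested. Ranks within a library do not depend on scaling. By deposited TPM, OLE1 stood at places 57, 88 and 164 of 5917 in edelfosine replicates 1, 2 and 3, and at places 766, 742 and 1363 in vehicle replicates 1, 2 and 3. Its call held under all 18 other settings, with log2 changes between 3.54 and 4.26.

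OLE1 lies on chromosome VII at positions 398628 to 400160 of the R64 reference, which is strain S288C, a close relative of BY4741. The low oxygen response element is the promoter sequence through which Mga2 is known to act on OLE1. Its inner letters TCAACAA were searched on both strands in the 600 bases before each start codon, and among the 10 genes they were found in OLE1 and FAS1. The same letters occur in 16.2% of 6005 such windows of the genome. Both sites are printed in the gene's direction because they hold these inner letters of the element tied to OLE1. The letters around them were not searched, so a match does not show the whole element. The searched motifs are in capitals, including in FAS1 the stress response element AGGGG.
OLE1, chrVII:398267-398313, plus strand: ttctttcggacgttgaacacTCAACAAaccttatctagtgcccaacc
FAS1, chrXI:100280-100326, plus strand: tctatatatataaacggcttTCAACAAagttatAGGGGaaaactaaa
The OLE1 site begins 341 bases before the start codon and the FAS1 site 371 bases before it. OLE1 and FAS1 share these inner letters but not the bases just before them, which are ac in OLE1 and tt in FAS1. Only OLE1 of the pair passed the test, and whether either site acts here was not tested. A match is a description of the letters, and W303 sequence was not used here.

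The activators of OLE1 diverged. MGA2 lies on chromosome IX at 416124 to 419465, and SPT23 on chromosome XI at 398832 to 402080. MGA2 had 46.2, 48.7 and 30.5 scaled TPM in edelfosine replicates 1, 2 and 3, against 6.21, 7.08 and 5.87 scaled TPM in vehicle replicates 1, 2 and 3. Every edelfosine library lay above every vehicle library. The means were 41.8 ± 9.85 scaled TPM with edelfosine and 6.38 ± 0.62 scaled TPM with the vehicle (SD, n = 3 each). The log2 change was 2.51 ± 0.16 (SE; adjusted p = 0.000243, limma), or 5.69-fold (95% confidence interval 4.34 to 7.47). SPT23, whose product resembles Mga2 and overlaps it in function, had 4.42, 5.75 and 6.06 scaled TPM in edelfosine replicates 1, 2 and 3, against 4.39, 4.60 and 6.20 scaled TPM in vehicle replicates 1, 2 and 3. The groups overlapped, and BY4741 was highest in both. The log2 change of SPT23 was 0.08 with a 95% confidence interval from -0.28 to 0.44 (adjusted p = 0.663, limma).

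The ratio of MGA2 to SPT23 within a library, which scaling cannot alter, was 10.5, 8.46 and 5.03 in edelfosine replicates 1, 2 and 3, and 1.41, 1.54 and 0.946 in vehicle replicates 1, 2 and 3. MGA2 was thus well above SPT23 in every edelfosine library, and the pair stood within 1.54-fold of each other in every vehicle library. An exact two-sided permutation test gave p = 0.1, the smallest that 3 against 3 allows, and 0.113 after adjustment over the 9 ratios computed between these genes. The permutation tests of ratios took no account of strain, and BY4741 had the lowest ratio of MGA2 to SPT23 under either treatment. With TPM as deposited SPT23 was called higher, at 0.59, close to the 0.55 of the median gene.

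UBX2 encodes an endoplasmic reticulum protein that recruits Cdc48 and is required for Mga2 and Spt23 to be processed, and lies on chromosome XIII at 244149 to 245903. UBX2 had 12.5, 11.5 and 13.2 scaled TPM in edelfosine replicates 1, 2 and 3, against 6.39, 4.25 and 7.54 scaled TPM in vehicle replicates 1, 2 and 3. The edelfosine libraries lay close together and above all vehicle libraries. The log2 change was 0.95 ± 0.18 (SE; adjusted p = 0.00580, limma), or 1.93-fold (95% confidence interval 1.42 to 2.62).

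**Figure D2:**
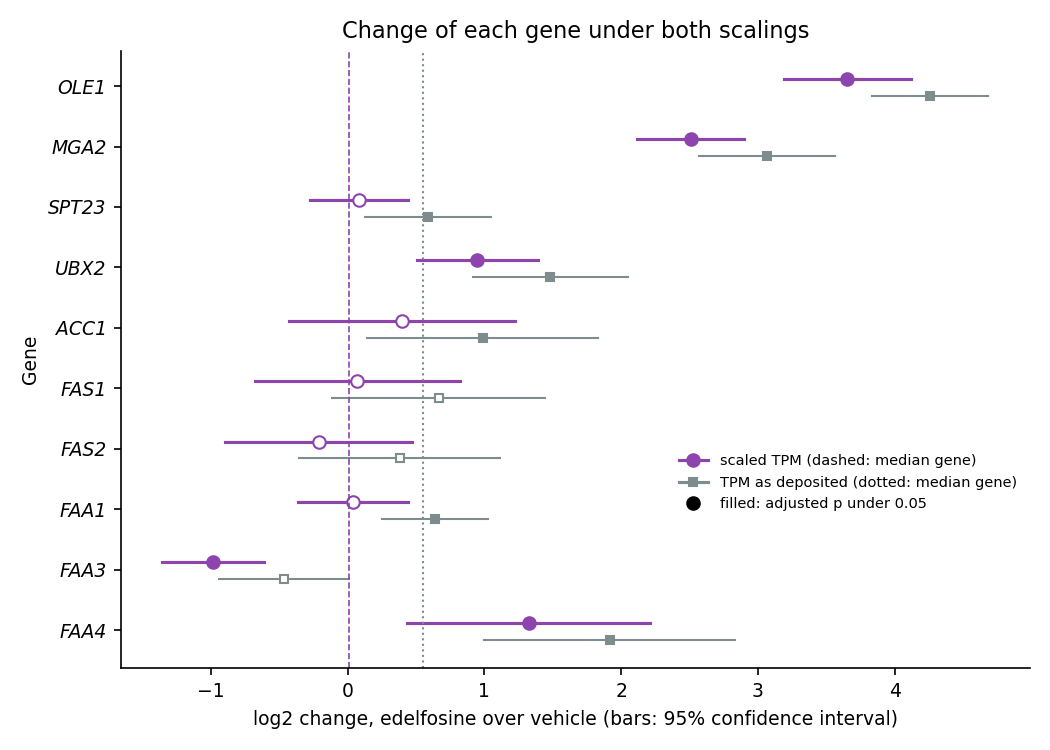
Log2 change, edelfosine over vehicle, of each gene with its 95% confidence interval from scaled TPM (purple circles) and from TPM as deposited (grey squares); filled symbols passed an adjusted p of 0.05 and vertical lines mark the median of all tested genes. OLE1 at 3.65 and MGA2 at 2.51 lie far from both median lines, whereas the intervals of SPT23, ACC1, FAS1, FAS2 and FAA1 hold the median of their own scaling.

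ACC1, FAS1 and FAS2, the enzymes that build the acyl chain, did not pass the test, and their edelfosine libraries disagreed. In R64 ACC1 lies on chromosome XIV at 654673 to 661374, FAS1 on chromosome XI at 100671 to 106826 and FAS2 on chromosome XVI at 108652 to 114315. ACC1 had 65.8, 41.3 and 15.4 scaled TPM in edelfosine replicates 1, 2 and 3, against 23.8, 33.8 and 22.6 scaled TPM in vehicle replicates 1, 2 and 3. FAS1 had 74.3, 50.3 and 19.2 scaled TPM in edelfosine replicates 1, 2 and 3, against 37.5, 49.9 and 33.3 scaled TPM in vehicle replicates 1, 2 and 3. FAS2 had 52.8, 34.2 and 14.2 scaled TPM in edelfosine replicates 1, 2 and 3, against 35.7, 40.7 and 28.1 scaled TPM in vehicle replicates 1, 2 and 3. For all 3 genes edelfosine replicate 1 was the highest of the 6 libraries and edelfosine replicate 3, the BY4741 culture, was the lowest.

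The log2 change of ACC1 was 0.40 (95% confidence interval -0.43 to 1.23; adjusted p = 0.361, limma). FAS1 had 0.07 (-0.68 to 0.82; adjusted p = 0.862) and FAS2 had -0.21 (-0.89 to 0.47; adjusted p = 0.557). As levels relative to the vehicle, the intervals ran from 0.742 to 2.34 times for ACC1, from 0.624 to 1.77 times for FAS1 and from 0.538 to 1.39 times for FAS2. The highest edelfosine library exceeded the lowest by 4.26-fold for ACC1, 3.87-fold for FAS1 and 3.72-fold for FAS2. On the log2 scale these ranges were wider than those of 97.5%, 96.7% and 96.4% of tested genes. Among the vehicle libraries the corresponding folds were 1.50, 1.50 and 1.45. The sign of all 3 changes depended on which libraries entered. FAS1 was at -0.21 without edelfosine replicate 1 and at -0.17 without vehicle replicate 1. FAS2 was at 0.18 without edelfosine replicate 3 and at 0.15 without vehicle replicate 3. ACC1 was at -0.11 without replicate 1 of both treatments. With TPM as deposited ACC1 was called higher, at 0.99 (adjusted p = 0.0449, limma), and FAS2 turned to 0.38 without being called.

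Within same-numbered libraries, edelfosine minus vehicle on the log2 scale was 1.43, 0.28 and -0.52 for ACC1 in replicates 1, 2 and 3. It was 0.97, 0.01 and -0.77 for FAS1, and 0.55, -0.24 and -0.94 for FAS2. The BY4741 pair was the lowest for all 3 genes. The strain by treatment interaction, BY4741 minus W303, was -1.38 ± 0.54 for ACC1, -1.25 ± 0.48 for FAS1 and -1.09 ± 0.46 for FAS2 (log2 ± SE). None of the 10 genes passed this test, and neither did any of the 5707 genes (0%). The adjusted p was 1.00 for each of the 10, in limma with 2 residual degrees of freedom. At an unadjusted p under 0.05 it counted 2 of the 10, FAS1 and ACC1, and 176 of all genes (3.08%).

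**Figure D3:**
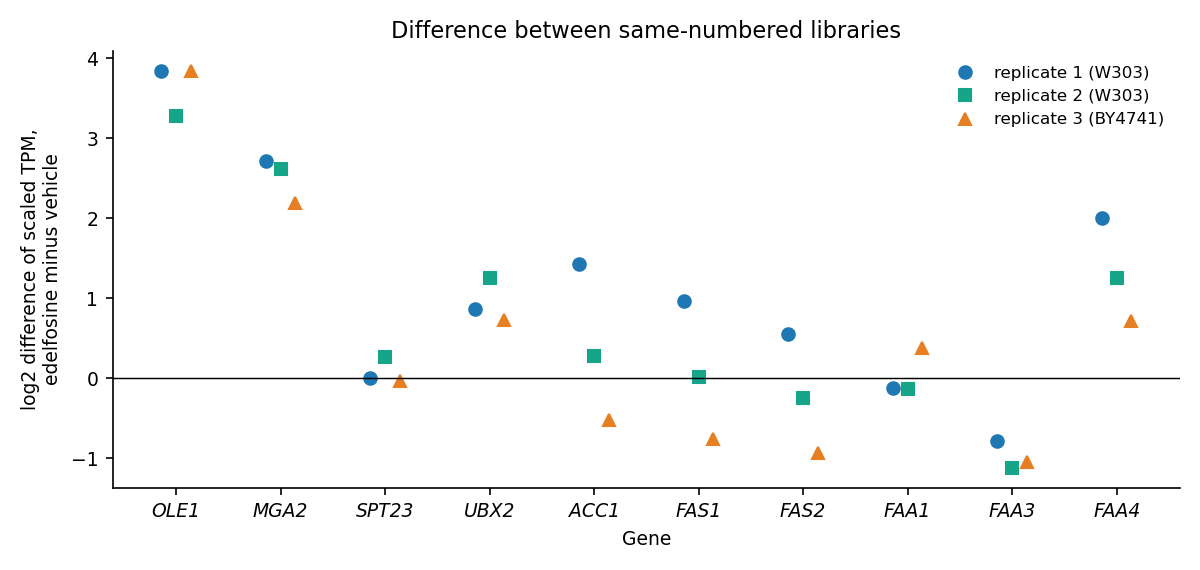
Log2 difference of scaled TPM, edelfosine minus vehicle, in same-numbered libraries for each gene; blue circles and green squares are the W303 replicates 1 and 2 and orange triangles the BY4741 replicate 3. OLE1, MGA2, UBX2 and FAA4 lie above 0 in all 3 pairs and FAA3 below 0, while ACC1, FAS1 and FAS2 run from above 0 in replicate 1 to below 0 in replicate 3.

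ACC1, FAS1 and FAS2 nonetheless followed each other from library to library. Likeness of pattern was measured as the root mean square difference of log2 values, each gene centred on its own mean over the 6 libraries. Of the 5706 other tested genes FAS2 was the nearest to FAS1 (0.16) and ACC1 the second nearest (0.17). FAS1 was likewise the nearest to FAS2 and the nearest to ACC1. Between FAS2 and ACC1 the likeness was lower (0.32), and ACC1 was the 42nd nearest to FAS2. Pearson's r over the 6 libraries was 0.96 for FAS1 with FAS2, 0.97 for FAS1 with ACC1 and 0.87 for FAS2 with ACC1, values that share the same libraries and the same scaling. These likenesses were looked up after the levels of the 3 genes had been seen.

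The subunits of the synthase assemble in equal numbers. The ratio of FAS1 to FAS2 transcripts, both per length, was 1.41, 1.47 and 1.35 in edelfosine replicates 1, 2 and 3, and 1.05, 1.23 and 1.18 in vehicle replicates 1, 2 and 3. All edelfosine ratios were above all vehicle ratios, by little (exact two-sided permutation test, p = 0.1, the smallest possible; 0.113 after adjustment over 9 ratios). The ratio of OLE1 to FAS1 was 25.0, 27.7 and 45.5 in edelfosine replicates 1, 2 and 3, and 3.44, 2.86 and 1.79 in vehicle replicates 1, 2 and 3. Desaturase transcripts therefore outnumbered synthase transcripts in every library, and by far more with edelfosine (exact two-sided permutation p = 0.1; 0.113 adjusted).

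FAS1, FAS2 and ACC1 are known targets of Ino2 and Ino4, which bind the inositol-sensitive element UAS-INO. Its core letters CATGTG were found before 4 of the 10 genes, MGA2, FAS2, ACC1 and FAA1, and before 16.4% of the 6005 windows. The sites of FAS2 and ACC1 are shown in the gene's direction, since these are the named targets that hold the letters. In pattern across libraries, FAS1 was nearer to FAS2 (0.16) and to ACC1 (0.17) than FAS2 was to ACC1 (0.32). Whether the motif bears on these patterns was not tested. The motif is in capitals and reads CACATG where it lies on the other strand.
FAS2, chrXVI:108400-108445, plus strand: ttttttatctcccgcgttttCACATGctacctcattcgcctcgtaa
ACC1, chrXIV:661691-661736, minus strand: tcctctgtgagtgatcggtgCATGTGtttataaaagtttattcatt
They begin 232 and 342 bases before the start codons of FAS2 and ACC1. No match to these 6 letters was found in the window of FAS1, which says only that this spelling is not there.

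The acyl-CoA synthetase genes went different ways. FAA1 lies on chromosome XV at 909343 to 911445, FAA3 on chromosome IX at 339344 to 341428 and FAA4 on chromosome XIII at 759807 to 761891. FAA4 had 131, 55.8 and 35.4 scaled TPM in edelfosine replicates 1, 2 and 3, against 31.9, 22.9 and 21.3 scaled TPM in vehicle replicates 1, 2 and 3. The groups did not overlap, but the edelfosine libraries spread by 3.71-fold. The log2 change was 1.32 ± 0.37 (SE; adjusted p = 0.0227, limma), or 2.50-fold (95% confidence interval 1.35 to 4.63). FAA4 did not pass when vehicle replicate 1 was left out (1.37; adjusted p = 0.0774), nor when vehicle replicate 2 was (1.11; adjusted p = 0.102).

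FAA3 had 4.50, 3.26 and 4.52 scaled TPM in edelfosine replicates 1, 2 and 3, against 8.49, 8.27 and 10.4 scaled TPM in vehicle replicates 1, 2 and 3. Every edelfosine library was below every vehicle library, at a low level in both. The log2 change was -0.98 ± 0.15 (SE, adjusted p = 0.00279, limma). With 1 added to each scaled TPM, the level was 0.506 times that of the vehicle (95% confidence interval 0.391 to 0.653). The means without that addition were 4.09 scaled TPM with edelfosine and 9.04 scaled TPM with the vehicle. With TPM as deposited FAA3 was at -0.47 (adjusted p = 0.0788, limma) and was not called, while the groups still did not overlap.

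FAA1 had 62.7, 63.8 and 77.5 scaled TPM in edelfosine replicates 1, 2 and 3, against 68.1, 70.2 and 59.6 scaled TPM in vehicle replicates 1, 2 and 3. The groups overlapped, and the log2 change was 0.04 (95% confidence interval -0.36 to 0.44; adjusted p = 0.853, limma). With TPM as deposited FAA1 was called higher, at 0.64, near the shift of the median gene. The ratio of FAA1 to FAA4 transcripts was 0.477, 1.14 and 2.19 in edelfosine replicates 1, 2 and 3, and 2.14, 3.07 and 2.81 in vehicle replicates 1, 2 and 3. FAA4 was above FAA1 in edelfosine replicate 1 and below it in the other libraries, and the ratios of the groups overlapped (exact two-sided permutation test, p = 0.2, also 0.2 adjusted over 9 ratios). FAA3 and FAA4 share 5 of their 2055 coding words of 31 bases, and the other 8 genes share none with any other coding sequence of R64.

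Stress response elements, the AGGGG sites bound by the general stress factors Msn2 and Msn4, were found in the window of 6 of the 10 genes, MGA2, UBX2, FAS1, FAS2, FAA1 and FAA4. They occur in 39.7% of the 6005 windows. The sites of MGA2 and FAA4, genes called higher, are shown in the gene's direction with the motif, here on the other strand, in capitals.
MGA2, chrIX:416042-416086, plus strand: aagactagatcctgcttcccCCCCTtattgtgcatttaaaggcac
FAA4, chrXIII:759676-759720, plus strand: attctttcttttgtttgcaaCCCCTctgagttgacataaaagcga
They begin 62 and 111 bases before the start codons of MGA2 and FAA4. UBX2, also called higher, holds the same letters 427 bases before its start codon. FAS1, FAS2 and FAA1 hold them and were not called, and OLE1 was called without them in this window. Whether these sites act here was not tested.

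Between strains, with treatment in the model, OLE1 differed by -1.03 ± 0.20, FAS1 by -0.99 ± 0.33 and FAS2 by -0.97 ± 0.30 (log2, BY4741 minus W303, SE), and ACC1 lay between OLE1 and FAS1. These values average treatments that were unlike for ACC1, FAS1 and FAS2. With edelfosine alone the BY4741 library differed from the mean of the W303 libraries by -1.69 for ACC1, -1.62 for FAS1 and -1.52 for FAS2, and with the vehicle alone by -0.32 for ACC1, -0.37 for FAS1 and -0.42 for FAS2. OLE1 differed by -0.88 with edelfosine and by -1.17 with the vehicle. None of the averaged differences passed the adjustment over all genes (adjusted p = 0.146 for OLE1 and 0.309 to 0.376 for the others, limma), and 0.421% of tested genes did. At an unadjusted p under 0.05 these 4 of the 10 genes counted, against 11.5% of all genes tested. The strain difference rests on replicate 3 alone.

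Of 61 further genes around the pathway, grouped in 9 lists, 60 were tested. With edelfosine 21 of them were higher and 10 lower, at a median log2 change of 0.15, beside 27.3% of all tested genes in each direction and a median of 0.01. Without vehicle replicate 1 the counts were 11 higher and 5 lower, without vehicle replicate 2 they were 14 and 6, and with TPM as deposited they were 33 and 5. Over all 5707 genes tested, TPM as deposited gave 2837 higher and 760 lower. The lists were described by counts and not tested as sets.

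Genes that process Mga2 and Spt23 or degrade endoplasmic reticulum proteins, Ole1 among them, were higher in 7 of 11 cases and lower in none, with a median of 0.53. The log2 changes of NPL4 and UFD1, the partners of Cdc48, were 1.17 and 0.99 (limma, adjusted p = 0.00204 for NPL4 and 0.00472 for UFD1). HRD1, a ubiquitin ligase of the endoplasmic reticulum, had 1.03 (adjusted p = 0.00274). CDC48 had 0.65 (adjusted p = 0.0140). The count of 7 rests on several calls near the threshold. It was 3 of 11 without vehicle replicate 1 or 2, when CDC48 (adjusted p = 0.0653 and 0.0559), UBC6, UBC7 and HRD3 were not called, and 4 of 11 without edelfosine replicate 3 or vehicle replicate 3. NPL4, UFD1 and HRD1 passed in every one of these fits. RSP5, the ligase that marks the Mga2 precursor, was at 0.08 (adjusted p = 0.635) with 9.53, 9.23 and 7.63 scaled TPM in edelfosine replicates 1, 2 and 3 and 9.33, 7.91 and 7.49 scaled TPM in vehicle replicates 1, 2 and 3. The desaturase's electron supply was called in 0 of 3 cases by limma, and 1 of 3, CYB5, had an unadjusted p under 0.05. CYB5, the cytochrome b5 gene, was at -1.22 (adjusted p = 0.0724). It was not called with all libraries in the fit, but without edelfosine replicate 1 it was called lower (-1.69, adjusted p = 0.00541, limma). CBR1, the gene of its reductase, was at -0.34, which turned to 0.27 with TPM as deposited.

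Genes for handling acyl-CoA were higher in 4 of 6 cases and lower in none, with a median of 1.20. The count of higher genes was also 4 without any 1 library, and without edelfosine replicate 1 NMT1, for the N-myristoyltransferase, was called lower. ACB1, for the acyl-CoA binding protein, had 3092, 2718 and 1894 scaled TPM in edelfosine replicates 1, 2 and 3, against 895, 836 and 995 scaled TPM in vehicle replicates 1, 2 and 3. Its log2 change was 1.47 ± 0.24 (SE; adjusted p = 0.00332, limma). The peroxisomal genes FAA2, PXA1 and PXA2, for an acyl-CoA synthetase and both parts of the fatty acyl-CoA transporter, had 1.27, 1.42 and 1.13. They were at low levels, with means of 9.83, 8.53 and 7.34 scaled TPM with edelfosine and 3.51, 2.55 and 2.73 scaled TPM with the vehicle. With a filter of at least 10 TPM in 3 libraries FAA2, PXA1 and PXA2 were not tested, and 1 of 3 tested genes of the list was higher. Of the first acyltransferases, which place acyl chains on the glycerol backbone, 1 of 4 was called, GPT2 at 1.31 (adjusted p = 0.00907, limma). That count turned on single libraries and on the scaling. Without edelfosine replicate 1 all 4 were called higher, SCT1 (adjusted p = 0.0348), SLC1 (0.00344) and ALE1 (0.0463) included, and without edelfosine replicate 3 there were 2. Without vehicle replicate 1 or 2 none of the 4 was, GPT2 then being at 1.27 and 1.29 (adjusted p = 0.0502 in both). All 4 were called higher with TPM as deposited, and ALE1 joined GPT2 under median and upper quartile scaling.

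In the list of acetyl-CoA supply 1 of 4 was called, ACS1, a glucose-repressed acetyl-CoA synthetase gene, at 1.74. Without edelfosine replicate 1 there were 3 of 4, with ACS2, the synthetase gene used in glucose, lower (-0.98; adjusted p = 0.00198) and SNF1, for the kinase that inhibits Acc1, higher (0.62; adjusted p = 0.0163). SNF1 was also called with TPM as deposited (adjusted p = 0.00690). Elongation had 1 higher and 3 lower of 6, at a median of -0.35. ELO2 and ELO3, which extend chains for sphingolipids, fell by 2.54 and 2.74 on the log2 scale. ELO1, which extends medium chains, was at 0.51 (adjusted p = 0.0485, limma), a call lost without edelfosine replicate 2 or 3 or any 1 vehicle library (adjusted p = 0.0801 to 0.215). TSC13, the enoyl reductase gene, was at -0.47, a call lost without any 1 library (adjusted p = 0.0598 to 0.148) and turned to 0.14 with TPM as deposited.

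**Figure D4:**
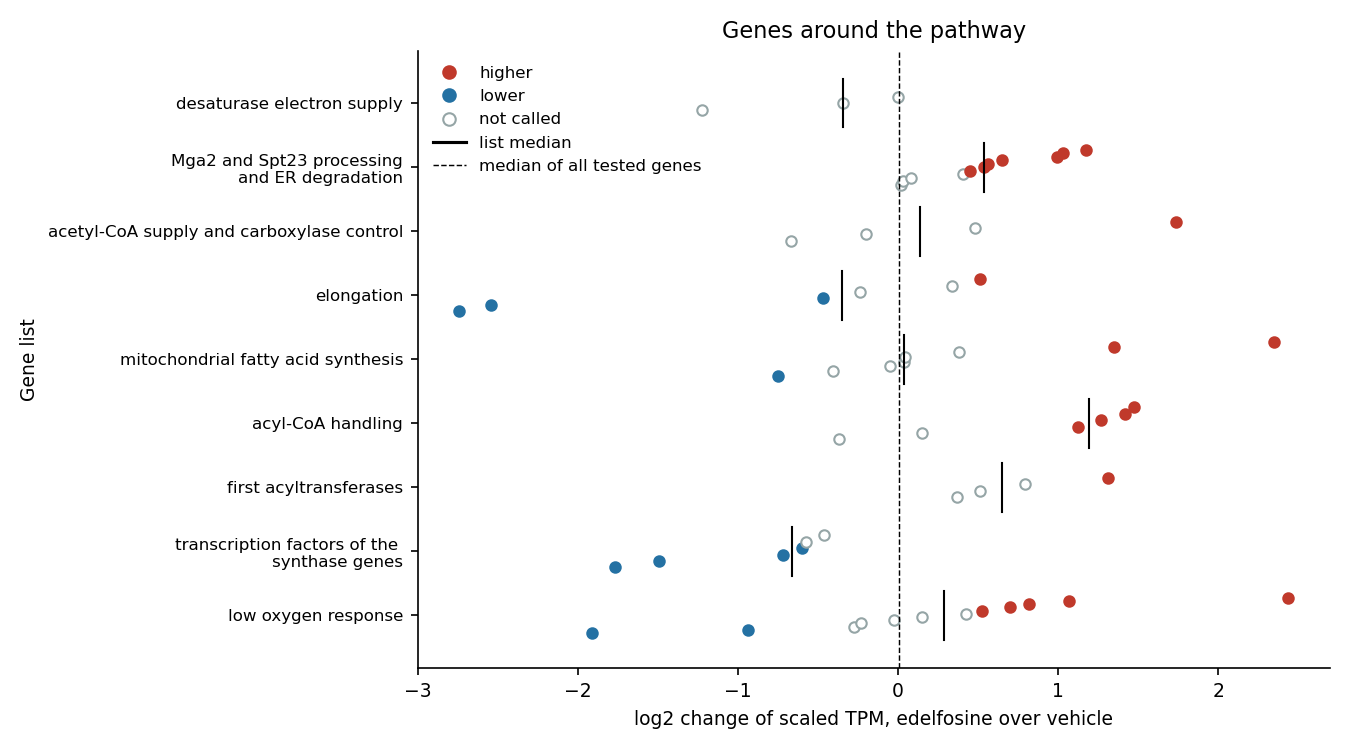
Log2 change of scaled TPM, edelfosine over vehicle, of the 60 tested genes in 9 lists around the pathway; red points were called higher, blue points lower, open grey points were not called, black bars are list medians and the dashed line is the median of all tested genes. Points of the Mga2 and Spt23 processing list all lie above 0, and those of the transcription factors of the synthase genes all lie below 0 on this scaling, though INO4 and ABF1 turn to 0.03 and 0.10 with TPM as deposited.

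Mitochondrial fatty acid synthesis, a separate bacterial-type pathway that supplies lipoic acid, had 2 higher and 1 lower of 8, and 4 higher and 0 lower with TPM as deposited. ETR1, the enoyl reductase gene, was at 2.35 ± 0.18 and ACP1, the acyl carrier protein gene, at 1.35 ± 0.18 (log2 ± SE; adjusted p = 0.000412 for ETR1 and 0.00171 for ACP1, limma). HTD2, the dehydratase gene, was at -0.75, which was not called when vehicle replicate 1 (-0.72; adjusted p = 0.0890) or 2 (-0.63; adjusted p = 0.0974) was left out, nor with TPM as deposited (-0.16).

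Transcription factors of the synthase genes were lower in 4 of 6 cases and higher in none, with a median of -0.66. The count was 1 without vehicle replicate 1, 2 without vehicle replicate 2 or 3 or edelfosine replicate 3, and 1 with TPM as deposited, OPI1 being called in each. With TPM as deposited INO4 and ABF1, which were not called, turned from negative to 0.03 and 0.10. OPI1, the repressor that inhibits Ino2, had 13.4, 10.9 and 15.9 scaled TPM in edelfosine replicates 1, 2 and 3, against 43.0, 47.5 and 52.4 scaled TPM in vehicle replicates 1, 2 and 3. Its log2 change was -1.77 ± 0.15 (SE; adjusted p = 0.000607, limma). INO2, for the activator, had 10.2, 2.68 and 5.54 scaled TPM in edelfosine replicates 1, 2 and 3, against 18.1, 16.6 and 16.8 scaled TPM in vehicle replicates 1, 2 and 3. The groups did not overlap for either gene. INO2 had -1.49 (adjusted p = 0.0177), lost without edelfosine replicate 3 or any 1 vehicle library (adjusted p = 0.0689 to 0.0766) and with TPM as deposited (-0.95; adjusted p = 0.0701). RAP1 and REB1, general factors, were at -0.60 and -0.72. Both calls were lost with TPM as deposited (-0.05 and -0.18), that of RAP1 also without edelfosine replicate 2 or 3 or any 1 vehicle library (adjusted p = 0.0551 to 0.122), and that of REB1 without vehicle replicate 1 (adjusted p = 0.0694).

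The low oxygen list, genes that like OLE1 respond to falling oxygen, had 5 higher and 2 lower of 12 tested. ANB1 and AAC3, which are repressed in air by Rox1, fell by 1.91 and 0.94 on the log2 scale (limma, adjusted p = 0.000957 for ANB1 and 0.00419 for AAC3). UPC2, a sterol and hypoxia regulator, was at 0.82. COX5B, a hypoxic respiratory subunit, was at 1.07 (adjusted p = 0.0114), and CYC7, the hypoxic form of cytochrome c, had the largest change of the list at 2.44 ± 0.58 (SE; adjusted p = 0.0123). Of the 5 higher calls 1 was left without vehicle replicate 1, that of UPC2, since COX5B (adjusted p = 0.0586), CYC7 (0.0628), ATF1 (0.0600) and TIR1 (0.119) then missed the threshold. There were 2 higher calls without edelfosine replicate 3 or vehicle replicate 3. Both lower genes were at low levels. ANB1 had means of 1.36 scaled TPM with edelfosine and 8.75 scaled TPM with the vehicle. AAC3 had means of 1.18 scaled TPM with edelfosine and 3.29 scaled TPM with the vehicle. With a filter of at least 10 TPM in 3 libraries, 3 of 7 tested genes were higher and 0 lower. The lower calls in this list thus rest on genes of low level, and so do the higher calls of UPC2 and TIR1, which that filter also removed. UPC2 had means of 5.56 scaled TPM with edelfosine and 2.75 scaled TPM with the vehicle. TIR1 had means of 1.94 scaled TPM with edelfosine and 0.985 scaled TPM with the vehicle, and its groups overlapped. ROX1 and HAP1, regulators of this response, were at 0.15 and 0.43 without being called, and with TPM as deposited HAP1 was called, at 1.00.

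The genes whose pattern over the 6 libraries was most like that of OLE1, by the same root mean square difference, were PST1 (0.36), HSP32 (0.41) and PIR3 (0.42). Their log2 changes were 3.12, 4.02 and 4.40. PST1 and PIR3 encode cell wall proteins, and HSP32 belongs to a family of near-identical subtelomeric genes, so its value is uncertain. Pearson's r with OLE1 was 0.99, 0.98 and 1.00 over the 6 libraries, which share the treatment difference.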

How the data were processed

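The authors deposited TPM for 5917 genes in 6 libraries, 3 with edelfosine and 3 with the vehicle. The deposited values are not whole and each library sums to the same total. Per the submitters' processing notes, kallisto and sleuth were used, but the sources used here give neither versions nor transcript set nor genome build. No depth, and so no counting interval, can be had from TPM.

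Genes needed 1 TPM or more in 3 or more libraries, which 5707 did. An unweighted trimmed mean of log ratios (TMM; trimming 30% of M and 5% of A values) gave each library's factor. limma 3.58.1 in R 4.3.3 fitted log2(scaled TPM + 1) on strain and treatment over all genes, with a mean-variance trend, 3 residual degrees of freedom and Benjamini-Hochberg adjustment. The strain by treatment interaction had a limma fit of its own. In simulated data for this treatment comparison, 67, 67 and 66 of 5707 genes were changed by 1, 2 and 4 on the log2 scale. The fit recovered 55.2%, 91.0% and 98.5% of these, with 7.39% of calls false. Far fewer genes were changed there than the 54.6% called in the data, so these rates need not hold here. Deviations from the group means correlated at 0.33, 0.05 and 0.51 between same-numbered libraries, and at -0.44 to 0.32 between differently numbered ones. The main fit did not pair libraries, and these values do not settle that choice. With the replicate number as a block FAA4 had an adjusted p of 0.00871 in limma, against 0.0227 in the main fit.

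Names and sequences came from R64, in which 5911 rows had a match. The members, the lists, the promoter motifs and the rule for named genes were chosen with earlier results of these data known. That rule took the 10 members, the called genes of lists of up to 8 genes, the 4 smallest adjusted p in longer lists, and the 3 patterns nearest to that of OLE1. CYB5, CBR1, ACS2, SNF1, RSP5, UBC6, UBC7, HRD3, NMT1, SCT1, SLC1, ALE1, INO4, ABF1, CYC7, ATF1, TIR1, ROX1, HAP1 and PRB1 were named after their values were seen. Other scalings, filters, pseudocounts and designs were tried, and libraries were left out in turn.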

Additional observations from a re-analysis of the deposited data

How the results depend on the processing

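The scaling decides the balance of calls. With TPM as deposited 78.9% of called genes were higher, against 50.0% after scaling. On the deposited values 7 of the 10 genes were called higher and 0 lower, beside 2837 higher and 760 lower of all 5707 genes tested. SPT23, ACC1 and FAA1 joined the calls there, FAA3 left them, and FAS2 turned to 0.38. The number of the 10 genes called stayed at 4 to 5 when single libraries or same-numbered libraries were left out, while calls over all genes ran from 2025 to 3359 and those over the lists from 16 to 40. Under the same omissions the log2 changes of genes that turned sign ran from -0.0026 to 0.16 for SPT23, from -0.37 to 0.52 for FAS1, from -0.58 to 0.18 for FAS2, from -0.11 to 0.89 for ACC1 and from -0.13 to 0.14 for FAA1. Neither direction of these 5 genes is established by these libraries. OLE1, MGA2 and UBX2 kept their call and direction in all 18 settings tried. Of 178 values of the 10 genes under other settings, 160 kept their direction and side of the threshold, 3 fell short of the threshold, 3 newly passed it and 12 turned sign. At 10 TPM in 3 libraries SPT23 and FAA3 were not tested. With the replicate number as a block 3017 genes were called in all and 5 of the 10. Of the list genes ACS2 (adjusted p = 0.0458), INO4 (0.0459) and OAR1 (0.0449) were then newly called lower, and ELO1, TSC13 and HRD3 were not called. The unknown depth limits what can be said of the low genes SPT23 and FAA3.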

Other observations

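The spread among the edelfosine libraries had a shape that several genes shared. OLE1, ACC1, FAS1, FAS2 and FAA4, or 5 of the 10, were highest in edelfosine replicate 1, intermediate in replicate 2 and lowest in replicate 3, which was BY4741, against 19.1% of all tested genes. This order was looked at after the levels of these genes had been seen. ACC1, FAS1 and FAS2 also followed each other, so the 5 genes are not separate observations. CYB5, whose product passes electrons to the desaturase, had 326, 86.9 and 60.1 scaled TPM in edelfosine replicates 1, 2 and 3, against 403, 540 and 101 scaled TPM in vehicle replicates 1, 2 and 3. ACS2, the acetyl-CoA synthetase gene used in glucose, had 115, 59.3 and 32.6 scaled TPM in edelfosine replicates 1, 2 and 3, against 126, 114 and 63.6 scaled TPM in vehicle replicates 1, 2 and 3. Neither passed the test in limma, CYB5 at a log2 change of -1.22 (adjusted p = 0.0724) and ACS2 at -0.67 (adjusted p = 0.0738). Both were called lower without edelfosine replicate 1 (adjusted p = 0.00541 for CYB5 and 0.00198 for ACS2, limma). With the replicate number as a block ACS2 was called lower (adjusted p = 0.0458, limma) and CYB5 was not called. Both genes were picked after their values were seen, and what sets the order of the libraries was not tested.

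The pattern of MGA2 was matched most closely by PRB1, which encodes vacuolar proteinase B. Their root mean square difference over the 6 libraries was 0.07 on the log2 scale, and PRB1 had a log2 change of 2.56. It was looked up after the values of MGA2 had been seen.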
